A study of Rattus norvegicus with 2 samples.

Results

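The SLC25 genes encode the mitochondrial carrier family. In the gene table analysed here, 51 of 21224 rows had a symbol made of Slc25a and a number, and these rows were taken as the family, with copies and pseudogenes that share the name. Averaged over both libraries, 39 of the 51 rows reached 1 FPKM. FPKM corrects reads for gene length and sequencing depth, so levels can be compared between genes. The libraries came from rat cortical neurons of embryonic day 18 given 1 of 2 small interfering RNAs, a negative control (siNC) or one directed at Ythdf3 (siYthdf3), the gene of an m6A reader. No label names another treatment, a time after transfection or a purification of neurons. Each group had 1 library, so no difference has a replicate check, no test between the conditions was possible and no p-value is given.

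SLC25 carriers sit, with few exceptions, in the inner mitochondrial membrane. Each is a bundle of membrane helices that swings between a state open to the cytosol and a state open to the matrix, usually exchanging a metabolite on one side for another on the other side. Neurons rely on them to export ATP, to carry reducing equivalents and glutamate across the membrane, and to supply the matrix with phosphate, nucleotides and cofactors. All are encoded in the nucleus and imported as proteins.

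Reads assigned to genes numbered 15392218 for siNC and 22586543 for siYthdf3. The targeted gene Ythdf3 was at 9.38 FPKM in siNC and 6.93 FPKM in siYthdf3, a ratio of 0.739 (interval 0.675 to 0.809). Every ratio divides the siYthdf3 FPKM by the siNC FPKM, and every interval is an exact 95% interval of that ratio, derived from the reads behind both values. They cover counting error only, not differences between samples. A log2 ratio here is log2 of siYthdf3 over siNC after adding 0.5 FPKM to each value, which understates differences of low genes. The pan-neuronal markers were all detected (11 of 11 past the filter), with a summed level of 1074 FPKM in siNC and 1226 FPKM in siYthdf3. Markers of other cells were detected too, and their levels are given with the results.

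The family as a whole lay close to the middle of the transcriptome, and Slc25a33 was the exception. The median log2 ratio of the 39 rows was -0.01, as it was over all 13172 rows past the filter. Slc25a33 was the only member at least 2-fold higher, a size that 0.706% of all rows reached, and no member was at least 2-fold lower, against 0.896% of all rows. At 1.5-fold the counts were the same, 1 higher and 0 lower, against 2.41% and 3.95% of all rows. Both sizes were judged on the log2 ratio with its added 0.5 FPKM. Without that addition Slc25a40, at a ratio of 0.647, would pass the limit of 1.5-fold lower. The 38 rows other than Slc25a33 lay between -0.45 (Slc25a40) and 0.40 (Slc25a18) on the log2 scale. Their interval lay above 1 for 4 and below 1 for 9, so with Slc25a33 the counts were 5 and 9 of 39. Over all rows 20% of intervals lay above 1 and 22.2% below. Such calls become more frequent with reads. Among rows at 10 FPKM or more, 3 of 13 members lay above 1 and 6 below, against 26.2% and 31.4% of all such rows. Among rows with at least 500 reads over both libraries, 3 of 19 members lay above 1 and 8 below, against 26.4% and 27.0%. In the band from 1 to 3 FPKM, 1 of 11 members lay below 1 and 0 above, against 11.3% and 10.9%.

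**Figure D1:**
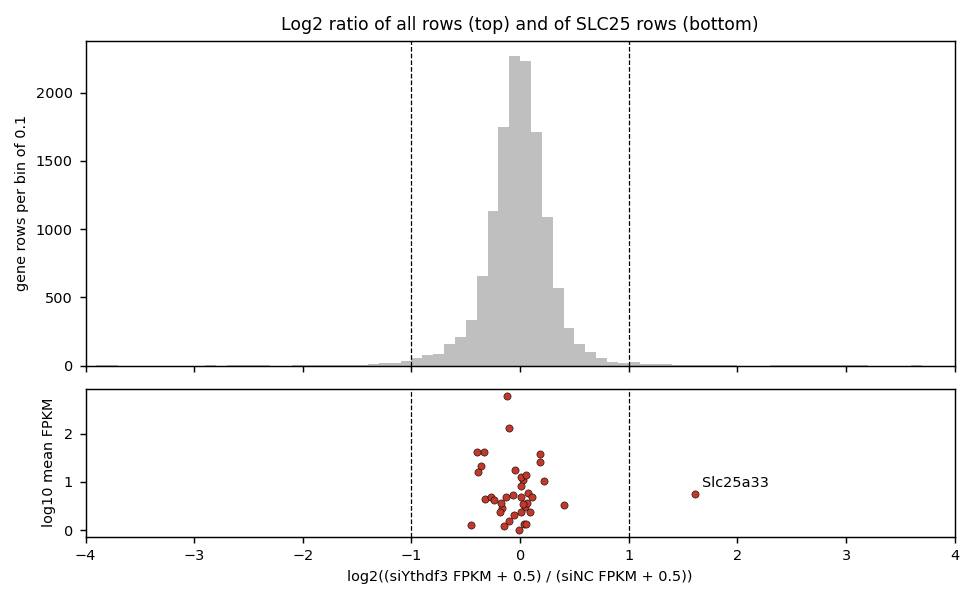
Top: number of gene rows (y axis) per bin of log2 ratio (x axis) for the 13172 rows past the filter. Bottom: the 39 SLC25 rows, 1 point each, by log2 ratio and by log10 of the mean FPKM; dashed lines mark a 2-fold difference, and only Slc25a33, at 1.61, lies beyond them.

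Pyrimidine nucleotide carriers bring the building blocks of mitochondrial DNA and RNA into the matrix, and 2 members have this role. Slc25a33 (ENSRNOG00000016949, chromosome 5, 160195042 to 160219961, minus strand) was at 2.55 FPKM in siNC and 8.80 FPKM in siYthdf3, from 54 and 273 reads. The ratio was 3.45 (interval 2.57 to 4.70) and the log2 ratio 1.61, the rank 23 from the highest of 13172 rows. This gene was known from earlier results of these data to be high, so its value is a description. Its closest relative in function, Slc25a36 (ENSRNOG00000013802, chromosome 8, 97662127 to 97693703), was the more abundant of the pair in both libraries. It was at 35.9 FPKM in siNC and 40.7 FPKM in siYthdf3, a ratio of 1.13 (interval 1.06 to 1.22). In siNC the level of Slc25a33 was thus far below that of Slc25a36, and in siYthdf3 it was closer but still lower. The copy Slc25a36l1 was at 3.85 FPKM and 3.35 FPKM, on 54 and 69 reads, and its interval of 0.601 to 1.27 includes 1.

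The rows beside Slc25a33 on the chromosome did not show a similar difference. On the side of lower coordinates, Tmem201 had a ratio of 0.840 (interval 0.696 to 1.01) and Pik3cd of 1.19 (interval 0.979 to 1.46). On the other side, Spsb1 had a ratio of 1.07 (interval 0.803 to 1.45). The other 3 of the 6 nearest rows, LOC120103039, LOC102548220 and Rps2-ps44, had at most 5 reads in either library. No other row of the table overlapped the Slc25a33 row. That row spans 24920 bases, against 40117 bases for Slc25a33 in RefSeq's table, so the 2 gene models differ. Whether they share a start site was not tested.

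The promoter of Slc25a33 is shown because it is the 1 member far from the rest. That of Slc25a25 is shown because it shares a motif with it, and those of Slc25a11 and Slc25a20 because theirs were the lowest log2 ratios after the thinly counted Slc25a40. Each run is the 250 bases before the start site in RefSeq's GRCr8 table, 5′ to 3′ on the gene's strand. Capitals mark the letters of 5 motifs, searched on both strands. These were the cAMP response element (TGACGTCA), the E-box (CACGTG) and the CCAAT box. The others were CCGGAAG for ETS factors and GGAATG for TEAD factors. None of the marked motifs overlap in these runs. The regions are chr5:165502974-165503223 (minus strand) for Slc25a33, chr3:36116582-36116831 (minus) for Slc25a25, chr10:55859061-55859310 (minus) for Slc25a11 and chr8:118243323-118243572 (plus) for Slc25a20.
Slc25a33: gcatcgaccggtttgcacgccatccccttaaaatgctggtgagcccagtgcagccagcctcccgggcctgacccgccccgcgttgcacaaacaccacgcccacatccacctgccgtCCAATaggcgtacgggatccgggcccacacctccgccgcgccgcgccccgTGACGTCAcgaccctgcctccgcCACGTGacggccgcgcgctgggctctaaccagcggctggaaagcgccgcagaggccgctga
Slc25a25: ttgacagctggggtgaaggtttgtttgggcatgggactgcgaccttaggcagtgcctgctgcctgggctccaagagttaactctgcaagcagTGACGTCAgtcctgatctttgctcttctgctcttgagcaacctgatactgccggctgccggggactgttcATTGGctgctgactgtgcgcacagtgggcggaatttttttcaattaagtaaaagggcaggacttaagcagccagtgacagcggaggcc
Slc25a11: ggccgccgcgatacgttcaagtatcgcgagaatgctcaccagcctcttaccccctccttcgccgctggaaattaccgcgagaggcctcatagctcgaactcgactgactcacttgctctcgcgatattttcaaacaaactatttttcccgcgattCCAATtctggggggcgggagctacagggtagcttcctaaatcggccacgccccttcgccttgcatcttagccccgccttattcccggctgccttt
Slc25a20: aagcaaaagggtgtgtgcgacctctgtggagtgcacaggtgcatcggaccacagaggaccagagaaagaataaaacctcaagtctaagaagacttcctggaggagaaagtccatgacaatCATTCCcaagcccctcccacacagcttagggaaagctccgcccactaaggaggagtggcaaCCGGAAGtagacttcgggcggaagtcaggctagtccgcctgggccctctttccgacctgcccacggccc

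In the Slc25a33 window the cAMP response element letters began 84 bases before the start site, the E-box 61 bases before it and the CCAAT box 134 bases before it. The table held a promoter for 29 of the 38 distinct symbols past the filter. Of these 29, 2 held TGACGTCA, Slc25a33 and Slc25a25, or 6.90% against 1.70% of 27457 promoters. CACGTG was in 2 (Slc25a33 and Slc25a2), or 6.90% against 5.79%, and CCAAT in 17, or 58.6% against 34.3%. CCGGAAG was in 5, or 17.2% against 7.74% and GGAATG in 6, or 20.7% against 11.8%. The members' windows were also richer in G and C, with a median of 61.6% against 52.0%, and promoters matched for this were not compared. Slc25a25 had a ratio of 0.904 (interval 0.792 to 1.03). Any part of these motifs in the values of the carriers was not tested. These matches are letters in a window, and neither binding nor the start site used by these cells was measured.

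Adenine nucleotide and phosphate carriers supply and drain the ATP synthase. All 3 past the filter had an interval below 1, against 22.2% of all rows. The share was 31.4% among rows at 10 FPKM or more, where all 3 lie. Slc25a4, the ADP/ATP exchanger of excitable tissue, was the most abundant member by far, at 652 FPKM in siNC and 601 FPKM in siYthdf3. It made up 57.0% of the family's summed FPKM in siNC and 56.5% in siYthdf3. Its ratio was 0.921 (interval 0.900 to 0.943), narrow because it rests on 12332 and 16675 reads. Slc25a5, the ADP/ATP exchanger of dividing cells, was at 24.5 FPKM and 18.9 FPKM, a ratio of 0.772 (interval 0.682 to 0.874). Slc25a3, which imports phosphate, was at 47.3 FPKM and 37.4 FPKM, a ratio of 0.790 (interval 0.763 to 0.819). The small difference of Slc25a4 and the larger ones of Slc25a5 and Slc25a3 thus went the same way. In the same libraries 10 cell cycle genes summed to 372 FPKM in siNC and 190 FPKM in siYthdf3. All 10 intervals lay below 1, against 22.2% of all rows, and their part in the value of Slc25a5 was not tested.

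The values of this group depend on how reads were assigned. Slc25a5 has near-identical pseudogenes, of which the table held Slc25a5-ps9 with 2 and 6 reads, so how its reads were divided among the copies is uncertain. The Slc25a3 row spans 80978 bases and overlaps the opposite-strand gene Ikbip, which was higher in siYthdf3 with a log2 ratio of 0.32. Slc25a31 and Slc25a6 of the same group were at or below 0.144 FPKM in both libraries. Slc25a4 and Slc25a5 are short genes, and across the table short genes had lower ratios. The median log2 ratio was -0.08 in the shortest of 10 length bins and 0.11 in the longest. With that trend removed Slc25a4 was at -0.03 with an interval of 0.960 to 1.01, which includes 1, and Slc25a5 was at -0.27. Slc25a3, a longer row, was at -0.41. Its listed length of 7923 bases exceeds the gene's whole span of 7522 bases in RefSeq's table. Its FPKM level and its value after removal of the trend are therefore uncertain.

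**Figure D2:**
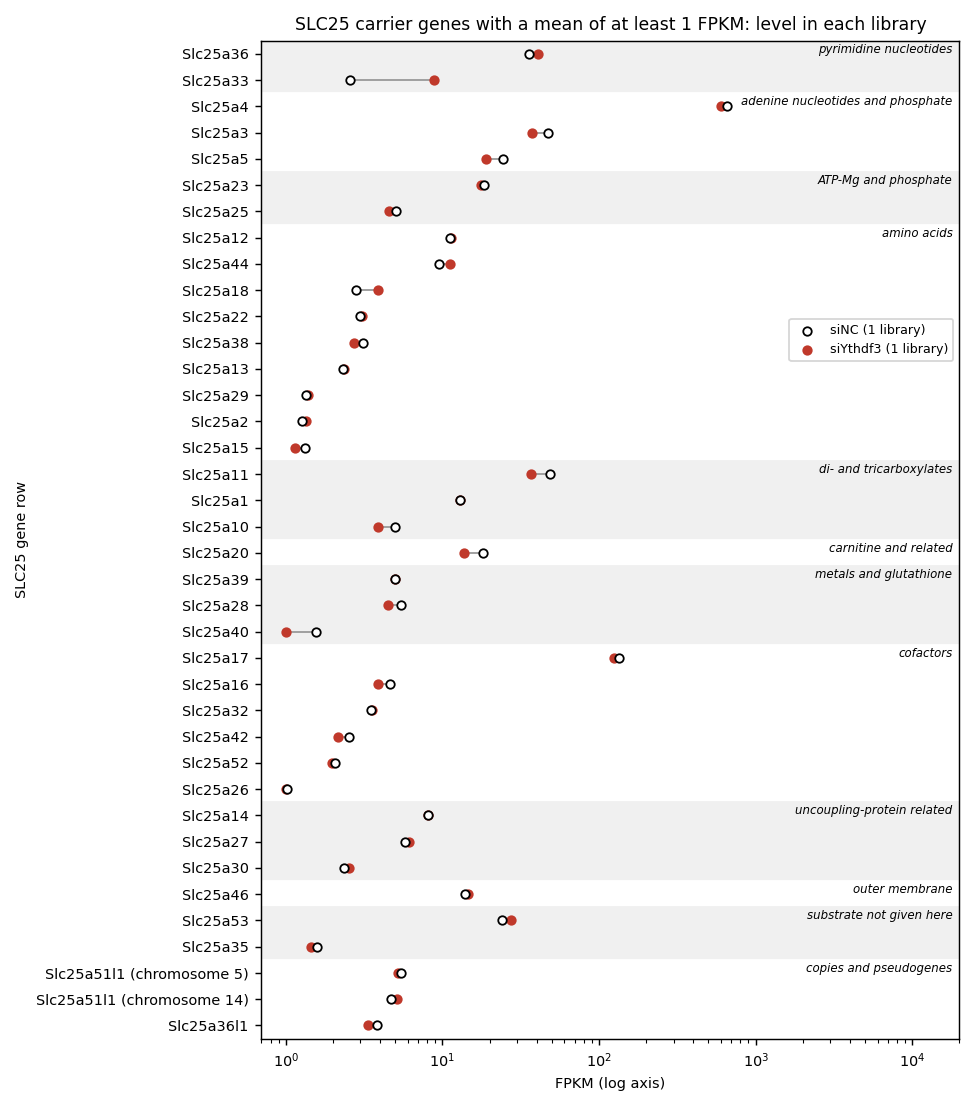
Level (x axis, FPKM on a log axis) of all but 1 of the 39 SLC25 rows past the filter (y axis, by substrate group) in siNC (open) and siYthdf3 (filled), 1 library each. Slc25a4 stands far to the right at 652 and 601 FPKM, and Slc25a33 has the widest gap between its points, from 2.55 to 8.80 FPKM.

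Carriers of dicarboxylates and tricarboxylates link the citric acid cycle to the cytosol. Slc25a11, the oxoglutarate/malate exchanger of the malate-aspartate shuttle (ENSRNOG00000003815, chromosome 10, 55357597 to 55360319), was at 48.6 FPKM in siNC and 36.7 FPKM in siYthdf3. The ratio was 0.756 (interval 0.702 to 0.815), and the log2 ratio of -0.40 was the second lowest of the 39 rows. Slc25a10, which exchanges malate or succinate for phosphate, was at 4.99 FPKM and 3.90 FPKM, a ratio of 0.782 (interval 0.656 to 0.932). Slc25a1, which exports citrate for lipid synthesis, was at 12.9 FPKM in siNC with a ratio of 1.01 (interval 0.881 to 1.16), level within counting error. Slc25a21, a carrier of oxoadipate, had 6 and 5 reads. The group's lower values thus lay with 2 of its 3 measured carriers.

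All 4 enzymes of the malate-aspartate shuttle had an interval below 1, against 22.2% of all rows and 31.4% of those at 10 FPKM or more, where 3 of the 4 lie. Their median log2 ratio was -0.19. Mdh1 was at -0.30 and Got2 at -0.22. The other carriers of the shuttle, the calcium-activated aspartate/glutamate exchangers, had intervals that include 1. Slc25a12, the main one of neurons, was at 11.1 FPKM and 11.4 FPKM (interval 0.917 to 1.14), and Slc25a13 at 2.33 FPKM and 2.34 FPKM (interval 0.789 to 1.28). Of 8 enzymes of citrate use and the citric acid cycle, 5 had an interval below 1 and 0 above, against 31.4% and 26.2% of all rows at 10 FPKM or more, where all 8 lie. The farthest below 0 were Idh2 at -0.33 and Cs at -0.31. No gene of either list reached 1.5-fold.

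The amino acid carriers were the largest group, with 9 of 9 past the filter. They had 2 intervals above 1 and 0 below, against 20% and 22.2% of all rows, and the other 7 intervals include 1. The median log2 ratio of the 9 was 0.04, with 7 of 9 above 0 (48.1% of all rows). With siYthdf3 thinned to the depth of siNC, 5 of 9 were above 0, since Slc25a12 and Slc25a13 changed sign. Slc25a18, a glutamate carrier known from astrocytes, was at 2.80 FPKM in siNC and 3.86 FPKM in siYthdf3, from 87 and 176 reads. Its ratio of 1.38 (interval 1.06 to 1.80) was the second highest of the 39 rows. The 9 astrocyte markers went both ways, with 4 intervals above 1, 2 below and a median log2 ratio of 0.01. They summed to 175 FPKM in siNC and 250 FPKM in siYthdf3, but without Gfap, at 68.2 FPKM and 141 FPKM, the other 8 summed to 107 FPKM and 109 FPKM. Slc1a2 had a ratio of 1.87 and Gja1 of 0.606. The part of astrocytes in the value of Slc25a18 was not tested. Slc25a44, which imports branched-chain amino acids, was at 9.51 FPKM and 11.2 FPKM, a ratio of 1.18 (interval 1.06 to 1.30). Slc25a22, the other glutamate carrier, was at 2.96 FPKM and 3.08 FPKM with an interval of 0.862 to 1.26.

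The remaining amino acid carriers showed no difference beyond counting error. Slc25a38, which supplies glycine for haem synthesis, was at 3.12 FPKM and 2.72 FPKM (interval 0.717 to 1.06). The basic amino acid carriers Slc25a15, Slc25a29 and Slc25a2 lay between 1.15 and 1.39 FPKM in both libraries, with log2 ratios of -0.15, 0.04 and 0.05. The Slc25a2 row lies whole within the Taf7 row on the same strand, so its reads cannot be assigned with confidence. Of 15 enzymes of glutamate, glycine and one-carbon metabolism, 3 had an interval above 1 and 6 below, against 20% and 22.2% of all rows. Gldc, the glycine-cleaving decarboxylase, was the only one past 1.5-fold, at 7.42 FPKM in siNC and 4.65 FPKM in siYthdf3.

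Slc25a20 exchanges acylcarnitine for carnitine and so feeds fatty acid oxidation. It was at 18.2 FPKM in siNC and 13.8 FPKM in siYthdf3, with 484 and 538 reads and a ratio of 0.758 (interval 0.669 to 0.858). Of 5 carnitine acyltransferases, 1 had an interval above 1 and 0 below, against 20% and 22.2% of all rows. Cpt2 in the matrix was at 2.79 FPKM and 4.26 FPKM, a ratio of 1.52 (interval 1.20 to 1.95), and the intervals of the other 4 include 1. Cpt1a, of the outer membrane, had a ratio of 1.03, Cpt1b of 0.962, Cpt1c, a neuronal form of the endoplasmic reticulum, of 1.22 and Crat of 0.887. The related carriers Slc25a45, Slc25a47 and Slc25a48 were below the filter, with at most 9 reads in either library.

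Metal and glutathione carriers were lower or level. Slc25a40, a glutathione carrier, had the lowest ratio of the 39 rows, 0.647 (interval 0.464 to 0.900), at 1.56 FPKM in siNC and 1.01 FPKM in siYthdf3. It rests on 78 and 74 reads, and its row shares 10112 bases with the opposite-strand gene Rundc3b. Its log2 ratio was -0.45, and -0.58 with a pseudocount of 0.1 FPKM. The more abundant Slc25a39, with the same role, was at 4.96 FPKM and 4.99 FPKM (interval 0.832 to 1.22). The iron importers mitoferrin-2 (Slc25a28) and mitoferrin-1 (Slc25a37) had ratios of 0.817 (interval 0.646 to 1.03) and 0.699 (interval 0.436 to 1.12). Both intervals include 1, and Slc25a37 fell just below the filter at a mean of 0.983 FPKM. Genes of haem and iron-sulfur synthesis went both ways, with 2 of 10 intervals on each side of 1. Over all rows 20% of intervals lay above 1 and 22.2% below. Glrx5 had a log2 ratio of 0.40.

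**Figure D3:**
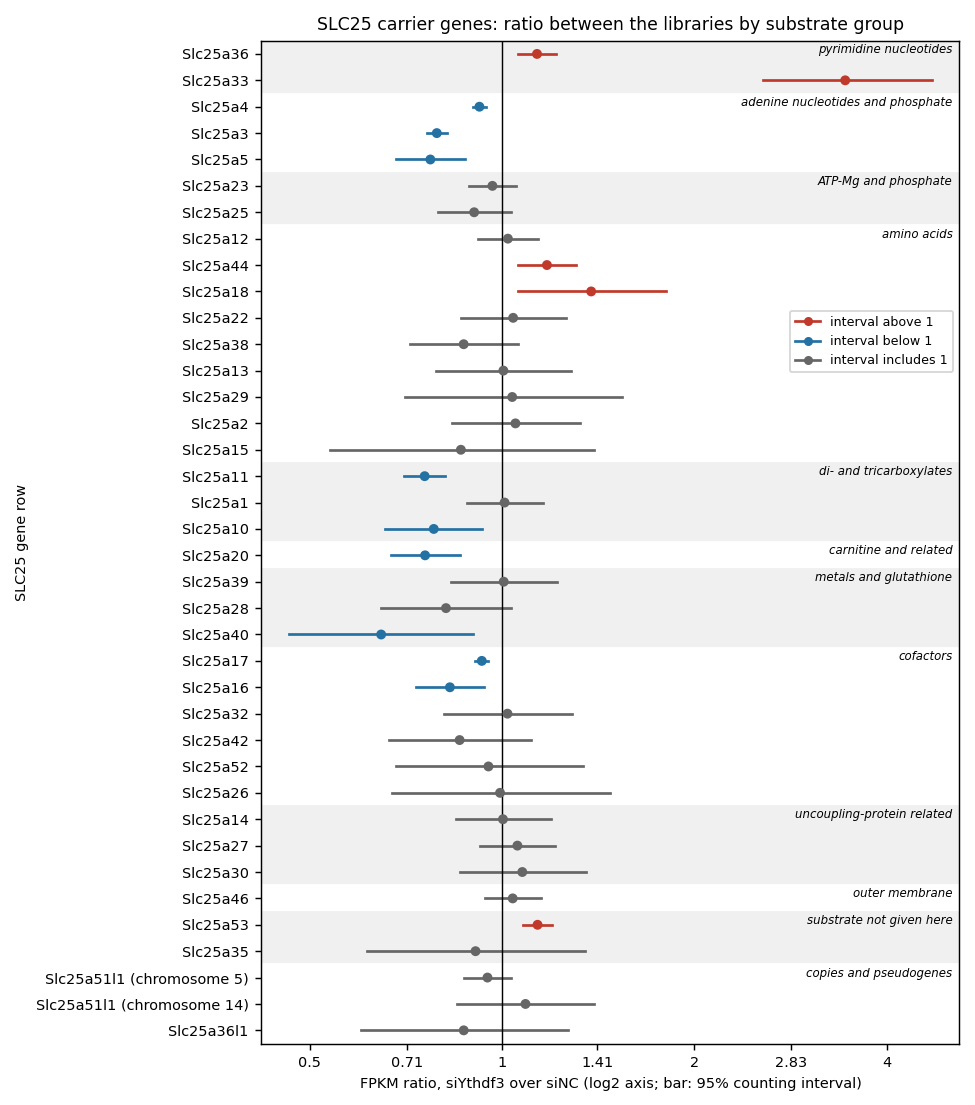
Ratio of FPKM, siYthdf3 over siNC (x axis, log2 scale), for all but 1 of the 39 SLC25 rows past the filter by substrate group (y axis), with exact 95% counting intervals as bars. Intervals lie above 1 for 5 rows (red) and below 1 for 9 (blue), and only Slc25a33 lies beyond a ratio of 2.

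Cofactor carriers had a median log2 ratio of -0.06, with 2 of 7 intervals below 1 and 0 above, against 22.2% and 20% of all rows. The 2 were those of Slc25a16 and of the Slc25a17 row, whose level is not read as that of the carrier alone. The group median changed sign in 1 of 10 alternative analyses, so no direction is given. Slc25a16, linked to coenzyme A, was at 4.66 FPKM and 3.86 FPKM, a ratio of 0.828 (interval 0.732 to 0.938), while Slc25a42, which imports coenzyme A, had an interval of 0.665 to 1.11. The carriers for folate (Slc25a32) and S-adenosylmethionine (Slc25a26) had log2 ratios of 0.02 and -0.01, and both intervals include 1. Slc25a52, a carrier of NAD, was at 2.08 FPKM and 1.98 FPKM. Rows named Slc25a51l1, copies of an NAD carrier by name, stood on chromosomes 5 and 14, at 5.47 and 4.70 FPKM in siNC and 5.19 and 5.11 FPKM in siYthdf3. Both intervals include 1. The row on chromosome 5 has a listed length of 11424 bases, against a RefSeq span of 1859 bases for that symbol. Which gene that row measures is therefore uncertain.

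Slc25a17, the carrier of the peroxisomal membrane, was listed at 135 FPKM in siNC and 126 FPKM in siYthdf3, second only to Slc25a4. Its ratio was 0.929 (interval 0.907 to 0.952). The row spans 81571 bases, the neighbouring gene in RefSeq's table is St13, an abundant co-chaperone gene, and no row of that exact name was analysed here. Whether the row holds reads of that neighbour was not tested, so its level is not read as that of the carrier alone.

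The calcium-regulated ATP-Mg/phosphate carriers, which set the matrix pool of adenine nucleotides, did not differ beyond counting error. Slc25a23 was at 18.3 FPKM and 17.7 FPKM (interval 0.889 to 1.05) and Slc25a25 at 5.02 FPKM and 4.54 FPKM (interval 0.792 to 1.03). Slc25a24 was below the filter, at 0.998 FPKM and 0.781 FPKM, and Slc25a41 had 1 read in each library. Among channels that admit the calcium itself, the inhibitory subunit gene Mcub was at 2.28 FPKM and 3.76 FPKM, a ratio of 1.65 (interval 1.13 to 2.43), and the other 7 measured genes were within 1.5-fold.

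The uncoupling-protein relatives of the brain were level. Slc25a14 was at 8.07 FPKM and 8.10 FPKM, Slc25a27 at 5.77 FPKM and 6.10 FPKM and Slc25a30 at 2.34 FPKM and 2.52 FPKM, and all 3 intervals include 1. Ucp2, a member of the same family under another symbol, was at 1.11 FPKM in siNC and 2.12 FPKM in siYthdf3, a ratio of 1.90 (interval 1.22 to 3.04) on 28 and 78 reads. Mtch2 and Mtch1, outer membrane insertases that also belong to the family and were named after their values were seen, had log2 ratios of -0.32 and -0.19. Slc25a46, an outer membrane protein of mitochondrial dynamics, was at 14.0 FPKM and 14.6 FPKM (interval 0.939 to 1.15).

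Of the members with no substrate given here, Slc25a53 was at 24.0 FPKM and 27.2 FPKM, a ratio of 1.14 (interval 1.08 to 1.20). Its row shares 46 bases with the more abundant Zcchc18 on the other strand, which had a log2 ratio of 0.14. Slc25a35 was at 1.59 FPKM and 1.44 FPKM and overlaps Pfas and Rangrf. Slc25a43 had 0 reads in siNC, which allows up to 0.125 FPKM, and 2 in siYthdf3. Of the 12 rows below the filter, all but Slc25a37 and Slc25a24 had at most 9 reads in either library. Those at 0 reads in siNC besides Slc25a43 were Slc25a45 and Slc25a39-ps5, each with 1 read in siYthdf3.

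Genes that import and serve the carriers were mostly level or slightly lower. Of 11 genes of the import route through TIM22, 6 had an interval below 1 and 0 above, against 22.2% and 20% of all rows, or 31.4% and 26.2% at 10 FPKM or more. Their median log2 ratio was -0.13. Timm22, the channel itself, was at 7.14 FPKM and 5.22 FPKM (log2 ratio -0.42), and Timm10, a chaperone of the intermembrane space, was at -0.31. Of 12 genes of mitochondrial DNA upkeep and nucleotides, 1 had an interval above 1 and 3 below, near the 22.2% of all rows below 1. The polymerase gene Polg was at 9.28 FPKM and 6.22 FPKM (log2 ratio -0.54) and Mgme1 at -0.46. None of these 12 was 1.5-fold apart in either direction. Among other inner membrane carriers Sfxn5 was at -0.37 and Sfxn1 at 0.22, and among outer membrane channels Vdac1 was at -0.17 and Vdac3 at -0.11. Of 7 regulators of mitochondrial biogenesis, 2 had an interval above 1 and 3 below, against 20% and 22.2% of all rows. Ppargc1a was at 0.38 and Nfe2l2 at 0.31.

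**Figure D4:**
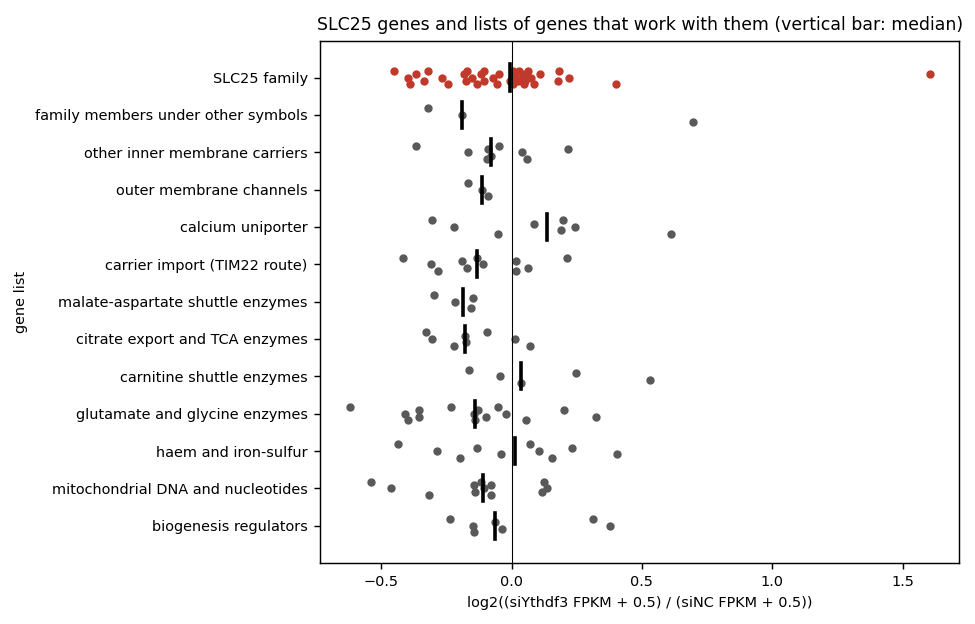
Log2 ratio (x axis) of each gene past the filter, 1 point per gene, for the SLC25 family and 12 lists of genes that work with it (y axis), with the median as a vertical bar. Medians lie between -0.19 and 0.14, and Slc25a33 at 1.61 is the farthest point to the right.

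Markers of other cell types also differed between the libraries. Over all rows, 22.2% of intervals lay below 1 and 20% above. The 11 pan-neuronal markers had 7 intervals above 1 and 1 below, with a median log2 ratio of 0.22. The 8 radial glia and progenitor markers summed to 2039 FPKM and 1378 FPKM, with 6 intervals below 1 and 0 above. Oligodendrocyte lineage markers summed to 31.1 FPKM and 18.7 FPKM (6 of 7 past the filter), and microglia markers to 7.55 FPKM and 3.60 FPKM (3 of 6). Without Tyrobp, on 27 and 8 reads, the other 5 microglia markers summed to 4.23 FPKM and 2.93 FPKM. Of the 3 past the filter, 2 had an interval below 1 and 0 above. The third, P2ry12, went the other way with a ratio of 1.45, and its interval of 0.987 to 2.15 includes 1. Of pericyte, fibroblast and meningeal markers (4 of 6 past the filter), 2 had an interval below 1 and 1 above, with a median log2 ratio of -0.39. They summed to 126 FPKM and 151 FPKM, nearly all Acta2 at 121 FPKM and 147 FPKM, and the others summed to 5.79 FPKM and 3.85 FPKM. Cx3cr1 had 2 reads in siNC and 0 in siYthdf3, and Lum had 0 in siNC and 6 in siYthdf3. Both genes were below the filter, and both intervals include 1. The part of these cells in the carriers' values was not tested. In bulk RNA, fewer cells of a type and less RNA per cell cannot be told apart.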

How the data were processed

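Messenger RNA of 2 libraries, siNC and siYthdf3, grouped by their titles, was analysed. The authors deposited FPKM values per gene, per the file headers, with gene lengths and coordinates of a build not given in the sources used here. Tools listed in the submitters' processing notes, with no role given, were StringTie 2.1.4, edgeR 3.40.2, STAR 2.7.6a, Subread 1.5.1 with featureCounts, and fastp 0.23.2. Per the labels' protocols, cDNA molecules carried identifiers of 12 random bases. No source used here gives the collapsing by identifier or the strand setting, and overlapping and antisense genes are therefore uncertain. Multiplying FPKM by gene length gave whole reads for 100% of values (tolerance 0.05 read), which set the depth and the Clopper-Pearson intervals. No count test was run. Counts used rows averaging 1 FPKM or more. A row at 0 allows up to 3 reads, which for 1 kilobase is 0.195 FPKM (siNC) or 0.133 FPKM (siYthdf3). The members and lists were chosen with earlier results of these data known. Motifs and neighbours were chosen after values were seen. Every member could be named, and from each other list those 1.5-fold apart or, where none was, the 2 farthest from 0. Symbols with no row were not analysed here. Of the rows counted, 1 member and 1 gene of haem and iron-sulfur synthesis are not reported here. The calculation was checked on simulated data. Alternatives were pseudocounts, filters, TPM, median centring, rescaling, removal of a length trend and thinning to equal depth. Python 3.11.15, numpy 2.4.6, pandas 2.3.3, scipy 1.17.1 and matplotlib 3.10.9 were used.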

Additional observations from a re-analysis of the deposited data

How the results depend on the processing

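The 10 alternatives left the counts of members 2-fold and 1.5-fold apart by log2 ratio unchanged, and Slc25a33 stayed between 1.46 and 1.76 on that scale. The members with an interval above 1 numbered 4 at a mean of at least 5 FPKM and 5 otherwise, and those below 1 numbered between 6 and 10. With the length trend removed both counts were as before, but Slc25a4 no longer had an interval below 1 and the Slc25a51l1 row on chromosome 5 did (0.794 to 0.939). The length listed for that Slc25a51l1 row, and so its corrected value, is uncertain. The family median lay between -0.04 and 0.03 and changed sign in 4 alternatives, so it has no direction. Medians of the adenine nucleotide and phosphate group and of the carnitine group, at -0.34 and -0.39 in the main analysis, depended on the processing. Without a filter on low values the adenine nucleotide and phosphate group was at -0.12 and the carnitine group at -0.035, because rows with few reads entered. With the length trend removed the adenine nucleotide and phosphate group was at -0.27. Medians of the cofactor group and of the copies changed sign in 1 alternative each. No paired analysis was possible because each group had 1 library. Depth limits the rows below the filter, and members past it near 1 FPKM have wide intervals, such as 0.537 to 1.39 (Slc25a15).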
